A study of Mus musculus with 4 samples.

Results

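The splicing factors and snRNP proteins described here were the 61 genes whose single symbol in the array's gene table begins as Srsf, Hnrnp, Sf3a, Sf3b, U2af, Snrp or Prpf, with a digit after Srsf, Sf3a, Sf3b and Prpf and with Snrpn left out. They were taken from 19938 genes with a symbol of their own, and each was represented by its brightest probe set over all 4 arrays. They comprised 10 SR proteins, 17 hnRNP proteins, 9 SF3A and SF3B subunits, 3 U2AF subunits, 10 Sm and other snRNP proteins and 12 PRPF proteins. The question was how the mRNAs of the splicing machinery compare between leukemic and normal proliferating erythroid cells. MEL cells are murine erythroleukemia cells, here 1 line with a stably introduced fusion of Gata-1 to ER, and they grew in DMEM with serum and puromycin. ES-EP cells are untransformed erythroid progenitors obtained from embryonic stem cells, and they grew in StemPro34 medium with Epogen (erythropoietin), hIGF-1, dexamethasone and murine SCF. Each cell type was measured in 2 cultures, A and B, on Affymetrix Mouse Gene 1.0 ST arrays. Cell type and medium changed together, so their parts in any difference cannot be told apart. The p-values reflect only the spread between duplicate cultures, a gene's own spread being combined with that of all genes.

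The spliceosome removes introns from precursor mRNA. Small nuclear ribonucleoproteins (snRNPs) carry it out: U1 recognizes the 5′ splice site, U2AF and U2 with its SF3A and SF3B subcomplexes recognize the 3′ splice site and branch point, and the tri-snRNP of U4, U6 and U5 then joins. SR proteins mostly promote the use of exons they bind, and hnRNP proteins often oppose it. Red cell precursors change splicing as they mature, the best known case being the membrane skeleton protein 4.1R. The arrays give 1 signal per transcript cluster, so the values describe mRNA levels of the splicing factors and hold no information on the splicing of any transcript.

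All values are log2 RMA signals, and a difference is the mean of the MEL arrays minus that of the ES-EP arrays. A gene was called where limma's p, adjusted over all 19938 genes, was under 0.05. The median signal was 5.68 and 5.67 on the MEL arrays but 5.81 and 5.84 on the ES-EP arrays, so that the median difference of all genes was -0.15. Of 1027 olfactory receptor genes, which have no known role in erythroid cells, 502 were called, 461 of them lower in MEL, so small differences passed the test also among genes near background. The 95th percentile of these genes, 5.19 in MEL and 5.56 in ES-EP, served as a background level. In both cell types 60 of the 61 members lay above it, the exception being Srsf12. All 9 measured erythroid markers lay above it too. Their median difference was -0.65, and 6 were lower in MEL and 2 higher, beside 43.2% and 20.5% of all genes. The anion exchanger Slc4a1 was 44.3-fold lower (5.93 and 5.82 in MEL against 11.25 and 11.44 in ES-EP) and the heme enzyme Alas2 8.69-fold lower. Tfrc, Gfi1b, Klf1 and Tal1 were lower by 0.78, 0.68, 0.65 and 0.52, whereas Gata1, of which the MEL line carries a fusion, was higher by 1.14. Of 8 embryonic stem cell markers only Nanog lay above the background level in both cell types. Of the 8, 5 were called lower in MEL, beside 43.2% of all genes, and 4 of the 5 lay below that level in both cell types. Markers of some other cell types differed too. Of 8 mast cell markers 7 were lower in MEL, beside 43.2% of all genes. However, 5 of the 8 lay at or below the background level in both cell types, 4 of them called lower. The mean over the list, 4.61 to 4.70 in MEL and 6.19 to 6.21 in ES-EP, was carried by Ms4a2 (3.83 to 4.08 against 10.96 to 11.15) and Hdc (-1.97). Megakaryocyte markers were higher for 4 of 5, beside 20.5% of all genes, and 1 of the 4 lay below the background level in both cell types. The mean over that list was 7.05 to 7.16 against 5.40 to 5.45, with Pf4 at 8.81 to 8.89 against 3.82 to 3.95. Of 8 macrophage markers 3 were called, all lower, and of 7 lymphocyte markers 1 was higher and 2 lower. Among all genes 20.5% were higher and 43.2% lower. At or below the background level in both cell types lay 5 macrophage and 3 lymphocyte markers. The part of any such cells in the results was not tested. In bulk RNA, fewer cells of a type and less RNA per cell cannot be told apart.

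The splicing machinery was present in both cell types and differed little between them. Of the 61 members, 40 were called, 15 higher and 25 lower in MEL, and 21 were not. This is 65.6% of the members, against 63.8% of all genes (20.5% called higher and 43.2% lower) and 67.8% of the genes above the background level in both cell types (26.5% higher, 41.3% lower). The sizes were small. Differences ran from -0.68 to 1.16 with a median of -0.13, and the median size without sign was 0.25, against 0.32 for all genes and 0.35 for genes above the background level. Snrpg alone, at its brightest probe set, was called with a difference of at least 2-fold, against 10.0% of all genes and 10.8% of those above the background level. In a test against a 1.2-fold difference, 6 members passed as higher and 2 as lower, with backgrounds of 12.5% and 19.6%. The arrays of the cell types did not overlap for 56 of 61 members, against 81.8% of all genes. Where arrays of single genes are said below not to overlap, this is what most genes showed.

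**Figure D1:**
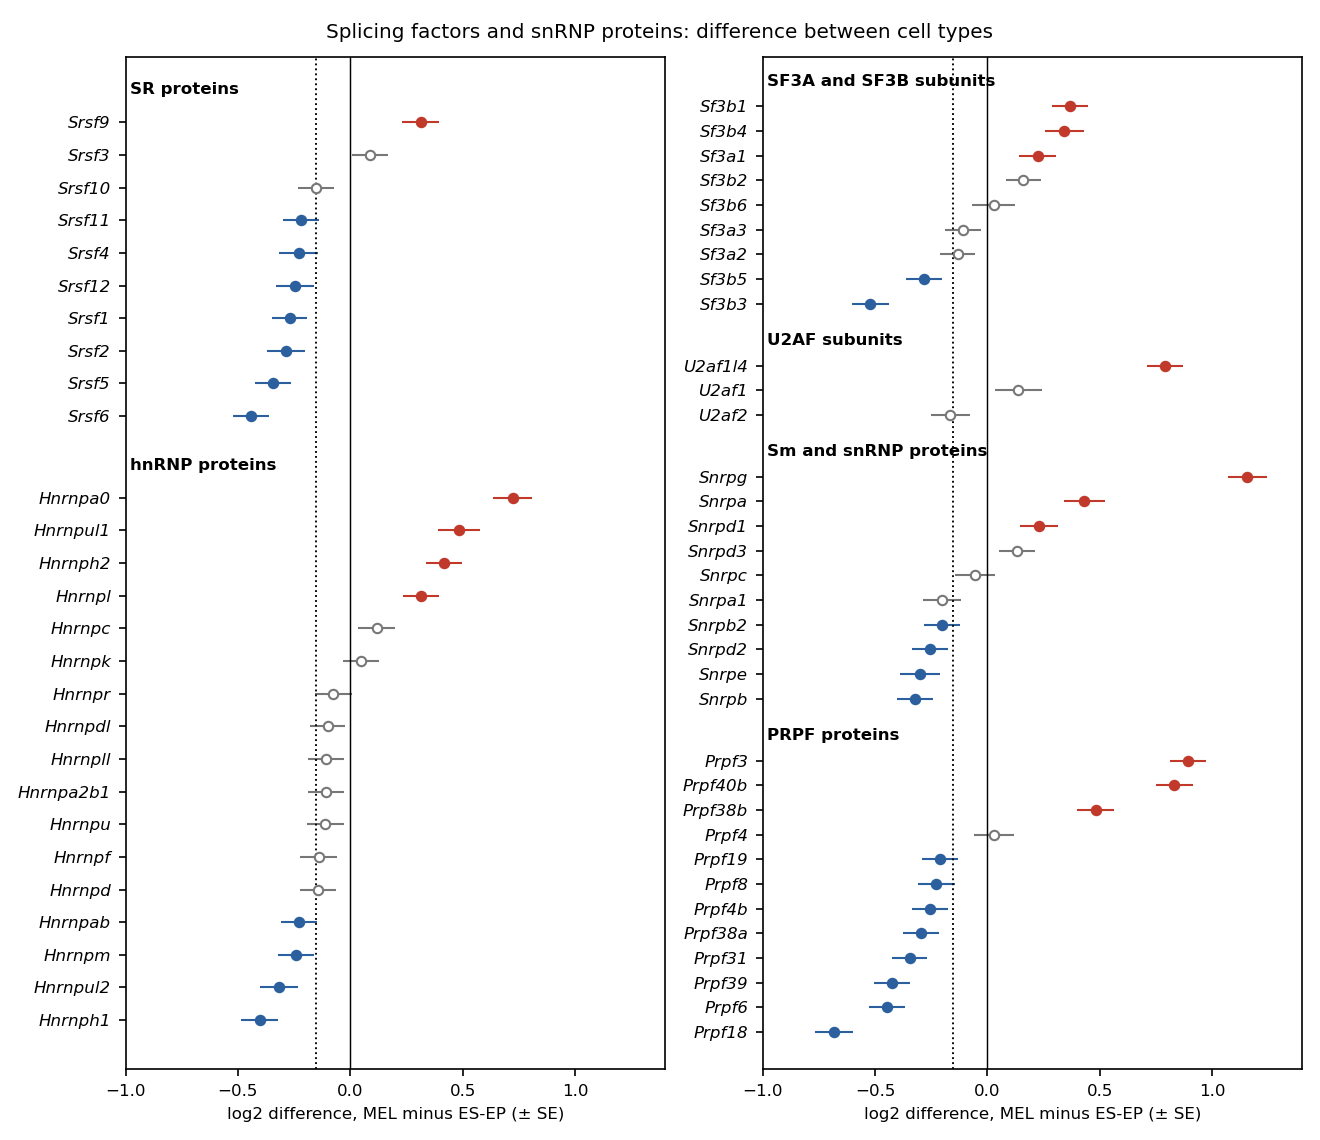
Difference of each of the 61 members between cell types, as log2 signal in MEL minus ES-EP, with the SE of the fit as bars, grouped by role. Filled red points were called higher and filled blue points lower in MEL, open points were not called, and the dotted line is the median of all genes, -0.15. Most members lie within 0.5 of 0, and Snrpg, at 1.16 for its brightest probe set, stands farthest out.

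The balance of directions depended on how the arrays were scaled. The deposited arrays differ in their medians. Bringing them to a common distribution moved the median of all genes upward by 0.13 (quantile), 0.15 (median centring) or 0.15 (cyclic loess). Quantile normalization left 16 higher and 14 lower calls. Median centring left 20 and 7, and cyclic loess 16 and 17. Among all genes, the percentages called higher and lower were 26.8 and 30.0, 28.9 and 28.3, and 28.5 and 27.4. All 15 higher calls held under each of the 3 rescalings, and 7 of the 25 lower calls did. An upward shift favors higher calls and works against lower ones. These counts therefore cannot compare how stable the directions are.

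**Figure D2:**
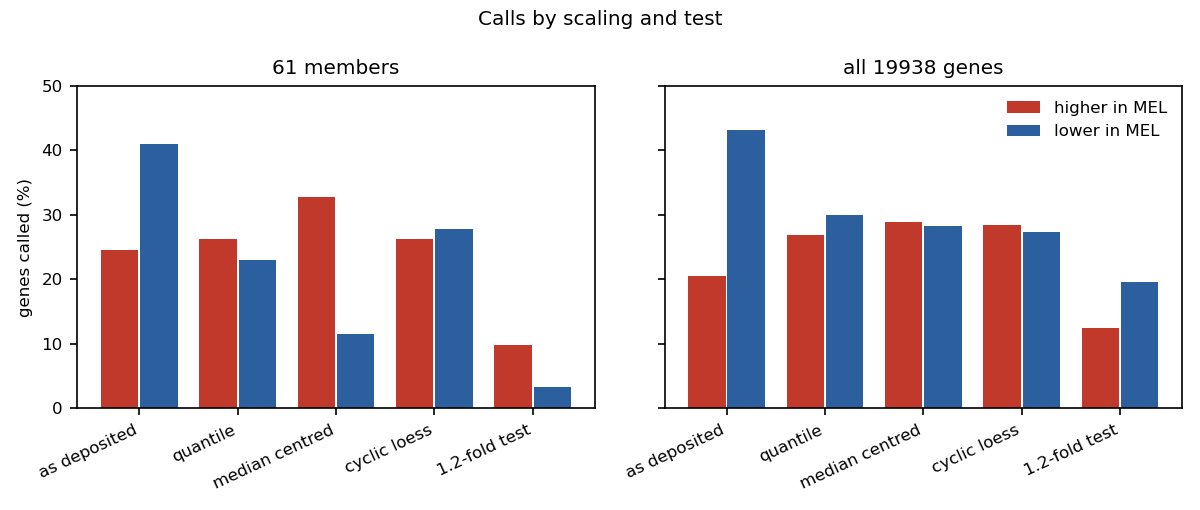
Percentage of genes called higher (red) or lower (blue) in MEL among the 61 members and among all 19938 genes, for the values as deposited, for 3 rescalings and for the test against a 1.2-fold difference. Among the members, 25 lower and 15 higher calls in the deposited values became 14 and 16 (quantile), 7 and 20 (median centring) and 17 and 16 (cyclic loess).

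For 8 members the call held in the same direction in all 14 alternatives, which included the rescalings, the 1.2-fold test and leaving out each array. Those higher in MEL were Snrpg, Prpf3, Prpf40b, U2af1l4, Hnrnpa0 and Prpf38b, and those lower were Prpf18 and Sf3b3. They come from hnRNP, U2AF, Sm, SF3B and PRPF proteins, and include no SR protein. These 8 are the members that passed the 1.2-fold test, which 32.1% of all genes passed. How many of all genes held in every alternative was not counted.

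**Figure D3:**
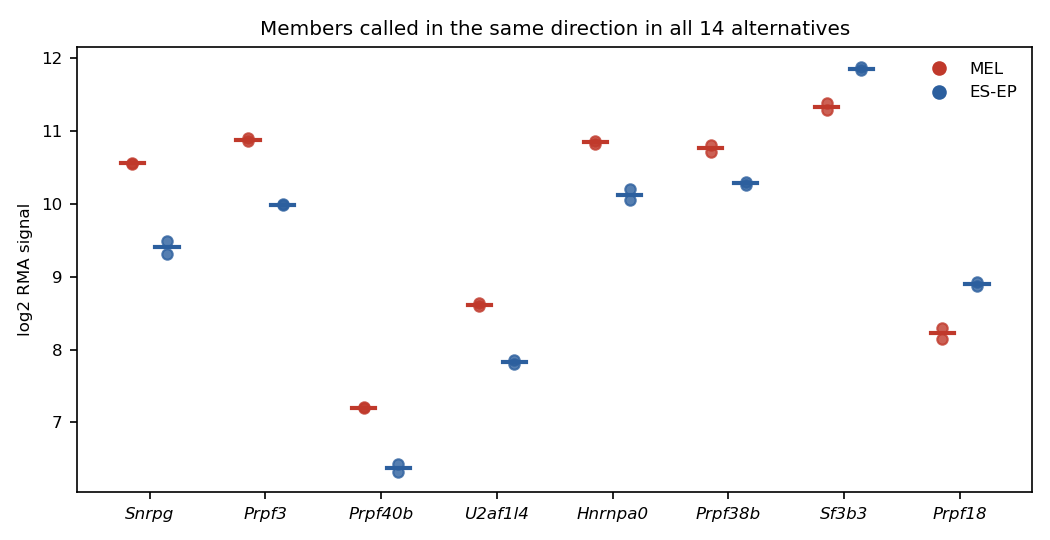
Log2 RMA signal of each array for the 8 members called in the same direction in all 14 alternatives, with MEL in red, ES-EP in blue and a bar at the mean of 2 cultures. Within each gene the arrays of the cell types do not overlap, as for 81.8% of all genes. Levels are not comparable between genes.

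The SR proteins, which bind exonic enhancers and recruit U1 and U2AF, were mostly lower in MEL. Of 10 members 7 were called lower and 1 higher, with a median of -0.24, where 43.2% of all genes were called lower and 20.5% higher. The lower calls fell to 4 under quantile normalization, 1 under median centring and 4 under cyclic loess, while the share of all genes called lower fell to 30.0%, 28.3% and 27.4%. None of the 10 passed the 1.2-fold test, and the median of all genes was itself -0.15. Leaving out any 1 array also left fewer lower calls, as it did among all genes.

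Srsf6 had the largest difference of the group, at 10.84 and 10.87 in MEL against 11.28 and 11.32 in ES-EP (-0.44 ± 0.08, SE of the difference, adjusted p = 0.000696). Srsf5 measured 11.32 and 11.32 against 11.69 and 11.63 (-0.34 ± 0.08, adjusted p = 0.00337). Srsf2 measured 12.19 and 12.17 against 12.39 and 12.54 (-0.29 ± 0.09, adjusted p = 0.0133), a call kept in 9 of the 14 alternatives. For all 3 genes both MEL arrays lay below both ES-EP arrays, and 81.8% of all genes showed no overlap of arrays. Srsf1, the founding SR protein, differed by -0.27, and Srsf12, Srsf4 and Srsf11 by -0.25, -0.23 and -0.22, the last 3 losing their call under each rescaling. Srsf9 alone was higher, at 10.32 and 10.37 against 9.99 and 10.08 (0.31 ± 0.08, adjusted p = 0.00692). Srsf10 was not called (-0.15, adjusted p = 0.117). Srsf3, the smallest SR protein, was not called at its brightest probe set (0.09, adjusted p = 0.368), but another of its probe sets gave a different answer, as described with the probe sets below.

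The hnRNP proteins coat precursor mRNA and include many repressors of splice sites. Of 17 members 4 were called higher, 4 lower and 9 not, beside 20.5% of all genes higher and 43.2% lower, with a median of -0.11. The calls were 4 higher and 2 lower, 5 and 1, and 4 and 2 under the quantile, median and loess rescalings. The abundant core members Hnrnpc, Hnrnpk, Hnrnpu, Hnrnpa2b1, Hnrnpd and Hnrnpf all fell short of the threshold, with differences from -0.14 to 0.12.

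Hnrnpa0, an A/B-type hnRNP that binds AU-rich elements, was the most different. It measured 10.87 and 10.83 in MEL against 10.05 and 10.21 in ES-EP, 1.65-fold higher in MEL (0.72 ± 0.09, adjusted p = 4.17e-05). Hnrnpul1, an hnRNP U-like protein, measured 10.50 and 10.47 against 9.90 and 10.11 (0.48 ± 0.09, adjusted p = 0.000988). Its relative Hnrnpul2 was lower, at 10.94 and 10.88 against 11.16 and 11.29 (-0.32 ± 0.09, adjusted p = 0.00805). These relatives differed in opposite directions, with no overlap of arrays in either. The call of Hnrnpul2 was lost with median centring (-0.17, adjusted p = 0.0988) and kept in 10 of the 14 alternatives.

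The close paralogs Hnrnph1 and Hnrnph2, which bind G-rich sequences, also differed in opposite directions, under the deposited scale and each of the 3 rescalings. Hnrnph2 was higher in MEL, at 11.27 and 11.31 against 10.89 and 10.86 (0.42 ± 0.08, adjusted p = 0.00102). Hnrnph1 was lower, at 11.10 and 11.12 against 11.47 and 11.56 (-0.40 ± 0.08, adjusted p = 0.00144). Paralogs can share probe sequence, and how far these do was not tested. Hnrnpl, known for binding CA repeats, was higher by 0.32 (adjusted p = 0.00553). Hnrnpm and Hnrnpab were lower by 0.24 and 0.23, but both calls were lost under each of the 3 rescalings.

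The SF3A and SF3B subunits, which hold the U2 snRNP on the branch point, had calls in both directions. Of 9 members 3 were called higher and 2 lower, beside 20.5% of all genes higher and 43.2% lower, and the median was 0.03. Under the quantile, median and loess rescalings 4 were higher each time, and 2, 1 and 2 lower. Sf3b1, the subunit that is often mutated in myelodysplastic syndromes with ring sideroblasts, measured 11.60 and 11.57 in MEL against 11.19 and 11.24 in ES-EP (0.37 ± 0.08, adjusted p = 0.00228). Sf3b3, a large scaffold subunit of the same complex, went the other way, at 11.39 and 11.28 against 11.84 and 11.88 (-0.52 ± 0.08, adjusted p = 0.000298), 1.44-fold lower in MEL. Both cell types were clearly apart for each gene. Sf3b5, a small subunit, was lower too, at 8.75 and 8.75 against 9.05 and 9.01 (-0.28 ± 0.08, adjusted p = 0.00963), a call that was lost with median centring (-0.13, adjusted p = 0.159) and without MEL replicate A or B (adjusted p = 0.0516 and 0.0556). Sf3a1 was higher by 0.22 (adjusted p = 0.0371), a call kept in 10 of the 14 alternatives. Sf3b4 was higher by 0.34 (adjusted p = 0.00516). Sf3b2, Sf3b6, Sf3a2 and Sf3a3 were not called, with differences from -0.13 to 0.16.

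U2AF recognizes the polypyrimidine tract and the AG of the 3′ splice site through a large and a small subunit. Neither U2af2, the large subunit (-0.17), nor U2af1, the small one (0.14), was called. U2af1l4, a paralog of the small subunit, was higher in MEL, at 8.60 and 8.64 against 7.80 and 7.86. The difference was 0.79 ± 0.08, or 1.73-fold (adjusted p = 1.18e-05), and it held in all 14 alternatives. A further probe set that the array table assigns to both U2af1l4 and Igflr1 differed by 0.15 (adjusted p = 0.231 over all probe sets).

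Sm proteins form the ring that is loaded onto U1, U2, U4 and U5 snRNAs. Of the 10 Sm and snRNP proteins 3 were called higher and 4 lower, beside 20.5% and 43.2% of all genes, with a median of -0.13. Calls within the ring went in both directions. Snrpg, at its brightest probe set, was the most different of all 61 members, at 10.55 and 10.57 in MEL against 9.49 and 9.31 in ES-EP, 2.23-fold higher (1.16 ± 0.09, adjusted p = 1.25e-06), but the probe set of its own chromosome gave 0.64, only the sixth largest size among the members. Snrpd1 was higher by 0.23 (adjusted p = 0.0369), a call kept in 10 of the 14 alternatives, and Snrpd3 was not called (0.13).

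Its other ring partners were lower in MEL. Snrpb measured 10.70 and 10.65 in MEL against 10.99 and 11.01 in ES-EP (-0.32 ± 0.08, adjusted p = 0.00491). Snrpe measured 11.07 and 11.21 against 11.51 and 11.37 (-0.30 ± 0.09, adjusted p = 0.0139). Snrpd2 measured 10.27 and 10.20 against 10.50 and 10.49 (-0.26 ± 0.08, adjusted p = 0.0168). Arrays of the cell types did not overlap in any of the 3, nor in 81.8% of all genes. With median centring none of the lower calls in the Sm and snRNP group remained, and with quantile normalization 1 did.

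The proteins that belong to single snRNPs also varied. Snrpa, the A protein of U1, was higher in MEL, at 11.09 and 10.91 against 10.52 and 10.61 (0.43 ± 0.09, adjusted p = 0.00189). Snrpb2, its relative in U2, was lower by 0.20 (adjusted p = 0.0484), a call lost under each rescaling. Snrpc of U1 (-0.06) and Snrpa1 of U2 (-0.20) were not called.

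The PRPF proteins act mainly in the tri-snRNP and its activation, and 11 of 12 were called, 3 higher and 8 lower, with a median of -0.24, beside 20.5% of all genes called higher and 43.2% lower. Under the quantile, median and loess rescalings the lower calls numbered 5, 4 and 6, beside 30.0%, 28.3% and 27.4% of all genes, and the higher calls 3 each time. Prpf3, a U4/U6 protein, measured 10.87 and 10.90 in MEL against 10.00 and 9.98 in ES-EP, 1.86-fold higher (0.89 ± 0.08, adjusted p = 4.15e-06). Prpf4, which binds Prpf3 in the same particle, was not called, at 9.89 and 9.88 against 9.77 and 9.94 (0.03 ± 0.09). Arrays of the cell types lay far apart for Prpf3 and overlapped for Prpf4.

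Prpf40b, a homolog of a yeast U1 component, measured 7.20 and 7.21 against 6.42 and 6.32 (0.83 ± 0.08, adjusted p = 9.7e-06). Prpf38b measured 10.72 and 10.81 against 10.26 and 10.31 (0.48 ± 0.08, adjusted p = 0.000495). Its relative Prpf38a, a component needed for activation of the spliceosome, was lower by 0.30 (adjusted p = 0.00819). That call held in 2 of the 3 rescalings and in 11 of the 14 alternatives.

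Other PRPF proteins were lower in MEL. Prpf18, which acts in the second catalytic step, measured 8.15 and 8.30 in MEL against 8.88 and 8.93 in ES-EP, 1.60-fold lower (-0.68 ± 0.09, adjusted p = 6.17e-05). Prpf6, a bridge between U5 and U4/U6, measured 9.80 and 9.71 against 10.20 and 10.21 (-0.45 ± 0.08, adjusted p = 0.000758). Prpf39, linked to U1, measured 8.45 and 8.51 against 8.90 and 8.91 (-0.42 ± 0.08, adjusted p = 0.00095). In each of these genes both MEL arrays lay under both ES-EP arrays, and 81.8% of all genes showed no overlap of arrays. Prpf8, the large scaffold at the center of U5, was lower by 0.23 (adjusted p = 0.0335). Prpf31, Prpf4b and Prpf19 were lower by 0.35, 0.25 and 0.21. The calls of Prpf8 and Prpf19 were lost under each rescaling. Fewer members of this group were called lower when any 1 array was left out, as among all genes.

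Splicing factor genes have processed pseudogenes, and the choice of probe set bore on some of these values. While 50 members had 1 probe set, 11 had several. In 9 of the 11 the brightest probe set lay among probe sets of another chromosome than the gene's own, judged by its 20 neighbors in the order of probe set numbers. Among the 50 with 1 probe set this was so for Srsf11, with 11 of the 20 neighbors on chromosome 4 and the gene on chromosome 3. For Snrpg the brightest probe set had neighbors on chromosome 17, and the one among genes of chromosome 6, where Snrpg lies, measured 10.24 and 10.21 in MEL against 9.62 and 9.54 in ES-EP. This is 1.56-fold (0.64 ± 0.08, adjusted p = 6.21e-05), so with the probe set of its own chromosome no member reached 2-fold. The direction was the same at both.

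Srsf3 changed direction. Its probe set on chromosome 17, the gene's own, measured 8.44 and 8.59 in MEL against 8.84 and 8.81 in ES-EP (-0.31 ± 0.09, adjusted p = 0.00897), whereas the brightest one differed by 0.09. With the own-chromosome probe set Sf3b4 was no longer called (0.19, adjusted p = 0.124), and Hnrnph2 stayed higher (0.51, adjusted p = 0.00026). All 5 probe sets of Snrpd2 were lower in MEL, by values from -0.34 to -0.26. Counts over the members hardly moved, at 14 higher and 26 lower. The own-chromosome choice was added after the values were seen.

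**Figure D4:**
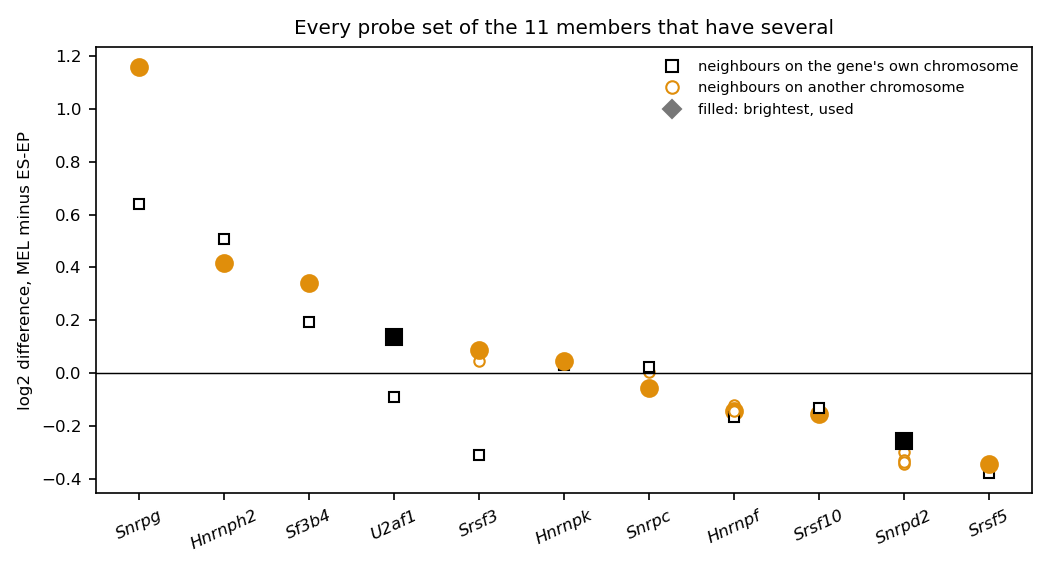
Log2 difference, MEL minus ES-EP, at every probe set of the 11 members with several. Large filled symbols mark the brightest probe set, squares are probe sets whose neighbors lie on the gene's own chromosome and circles are the others. The symbols part most for Snrpg (1.16 and 0.64) and Srsf3 (0.09 and -0.31).

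The rest of the pathway was followed in 9 lists with 169 entries, of which 160 were measured. Of these genes 91 were called, 40 higher and 51 lower in MEL, beside 20.5% of all genes higher and 43.2% lower. This is 56.9% beside the 63.8% of all genes, and the median was -0.07. Of the 160 genes, 11 were called with at least a 2-fold difference, 6 higher and 5 lower, beside 10% of all genes. These lists were chosen with earlier results of the arrays known. Some of their genes had several probe sets, among them Lsm6 with 3 and Gemin6, Gemin8, Celf2 and Nova1 with 2 each. The brightest was used, and its neighbors were not checked as for the members.

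Genes that assemble snRNPs included the gene with the largest lower difference of all 9 lists. The SMN complex loads Sm rings onto snRNAs. Of 16 assembly and export genes 4 were higher and 8 lower, beside 20.5% and 43.2% of all genes. Gemin6, an SMN complex member, measured 8.16 and 8.03 in MEL against 9.87 and 9.74 in ES-EP, 3.26-fold lower (-1.71 ± 0.09, adjusted p = 5.15e-08). Clns1a, the pICln chaperone that holds Sm proteins before loading, measured 9.59 and 9.58 against 10.59 and 10.57 (-0.99 ± 0.08, adjusted p = 1.7e-06). Smn1 itself was not called (-0.06). Gemin2, Gemin4, Gemin5 and Gemin7 were lower by 0.23 to 0.53, and Gemin8 was higher by 0.41.

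The Lsm ring of U6 also had calls in both directions. Of 17 Lsm and tri-snRNP genes 4 were higher and 7 lower, beside 20.5% and 43.2% of all genes. Lsm2 measured 8.24 and 8.25 against 9.37 and 9.35, 2.16-fold lower in MEL (-1.11 ± 0.08, adjusted p = 6.81e-07), and Lsm6 was lower by 0.60 (adjusted p = 0.000223). Lsm3 was higher by 0.43. In the minor spliceosome, which removes a rare class of introns, 2 of 7 were higher and 3 lower, with Snrnp35 at -1.01 (adjusted p = 1.67e-06) and Snrnp48 at 0.54 (adjusted p = 0.000215).

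Of 17 further U1, U2 and branch point proteins 4 were higher and 7 lower, beside 20.5% and 43.2% of all genes. Phf5a, an SF3B subunit whose symbol the rule did not take, measured 10.92 and 10.87 in MEL against 11.70 and 11.71 in ES-EP (-0.81 ± 0.08, adjusted p = 9.47e-06). Cherp was lower by 0.41 (adjusted p = 0.00199). Among genes of the Prp19-associated complex and the catalytic steps, 3 of 23 were higher and 8 lower. Isy1 and Bcas2, which join the spliceosome with this complex, were higher, Isy1 at 10.11 and 10.12 against 9.02 and 9.17 (1.02 ± 0.09, adjusted p = 2.7e-06) and Bcas2 by 0.88 (adjusted p = 7.52e-06).

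Of 17 SR-related and exon junction proteins 3 were higher, 1 lower and 13 not called, beside 20.5% of all genes higher and 43.2% lower. The lower one was Eif4a3, the helicase that anchors the exon junction complex on RNA, at 8.88 and 8.88 in MEL against 10.28 and 10.16 in ES-EP, 2.54-fold lower (-1.34 ± 0.08, adjusted p = 2.11e-07). Rbm8a, its partner in that complex, was higher by 0.67 (adjusted p = 4.35e-05). Among kinases and importers of SR proteins 2 of 8 were higher and 4 lower. Clk4 and Clk1, kinases that phosphorylate SR proteins in the nucleus, were lower by 0.92 and 0.67, while the kinase Srpk1 was higher by 0.43 (adjusted p = 0.00133).

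The tissue-regulated splicing factors had the widest range of the 9 lists. Of 35 genes 9 were higher and 9 lower, beside 20.5% and 43.2% of all genes. Of the lower calls 5 (Khdrbs2, Khdrbs3, Elavl2, Elavl4 and Rbm47) lay below the background level in both cell types, and among factors above it in both 8 were higher and 4 lower. Celf2, a regulator of alternative exons, reached 9.0 and 8.92 in MEL against 4.68 and 4.59 in ES-EP, which is under the background level there, so the size of the difference (4.33 ± 0.08, adjusted p = 2.82e-11) rests on background. Rbm20, best known for splicing of titin in heart, measured 8.16 and 8.05 against 6.06 and 6.06, 4.13-fold higher in MEL (2.05 ± 0.08, adjusted p = 6.31e-09). Rbfox2, which in erythroid cells is known to promote inclusion of a regulated exon of protein 4.1R, measured 7.46 and 7.51 against 5.91 and 5.85, 3.04-fold higher in MEL (1.61 ± 0.08, adjusted p = 3.96e-08). In ES-EP both Rbm20 and Rbfox2 lay not far above the background level there, 5.56, so the sizes of their folds are uncertain. Mbnl1, another factor with known erythroid targets, was not called (0.09), and Nova1 was 2.29-fold lower (adjusted p = 1.26e-06). Genes named here beyond the 2 largest differences of a list, Rbfox2 among them, were chosen after their values were seen.

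Among hnRNP-related RNA-binding proteins 9 of 20 were higher and 4 lower, beside 20.5% and 43.2% of all genes. Of the lower calls 1 lay below the background level in both cell types. Pcbp4, a poly(C)-binding protein, measured 8.10 and 8.05 in MEL against 6.50 and 6.55 in ES-EP (1.55 ± 0.08, adjusted p = 5.15e-08). Rbmx, also known as hnRNP G, measured 10.10 and 10.15 against 8.72 and 8.65, 2.71-fold higher (1.44 ± 0.08, adjusted p = 9.92e-08). Both genes were apart in every array.

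**Figure D5:**
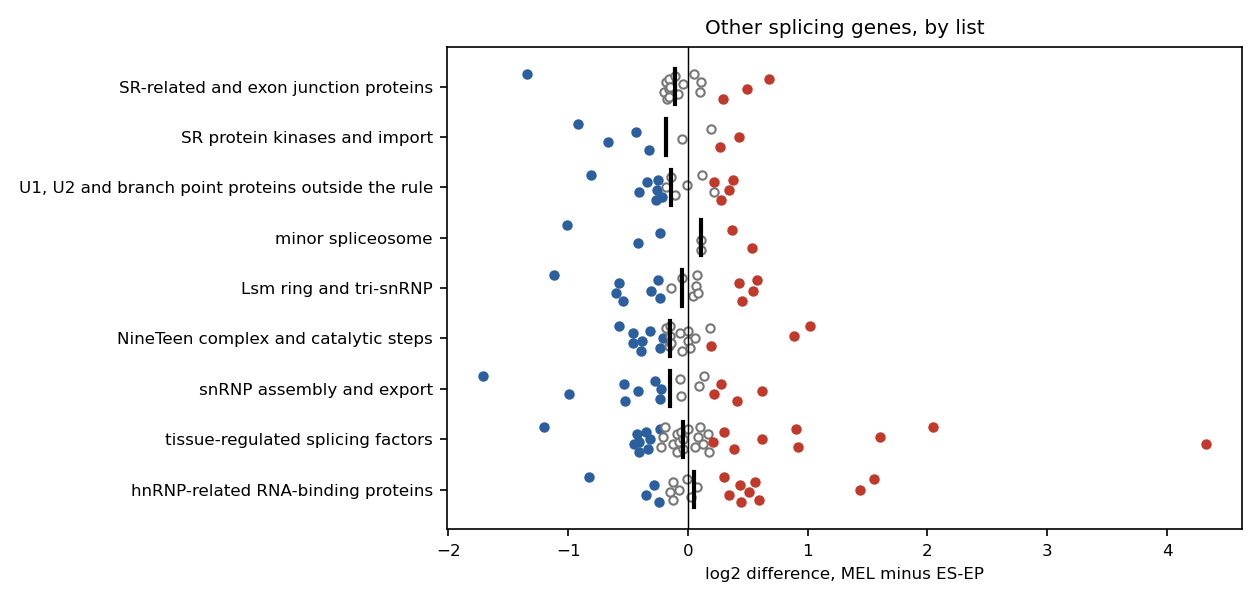
Log2 difference, MEL minus ES-EP, of the measured genes of the 9 other splicing lists, with called genes filled (red higher, blue lower in MEL), genes not called open, and a black bar at each list's median. Medians lie near 0, and Celf2 (4.33), Rbm20 (2.05) and Gemin6 (-1.71) lie farthest out.

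The promoters of the members were read in the 250 bases before each annotated start, from RefSeq (GRCm38.p6), and 53 of 61 members had an entry, with 71 promoters in all. Several starts of 1 gene overlap, so promoters are not independent. Both strands were searched for 6 sets of letters: CCGGAAG (a site of ETS factors), GAGGAAG (a core of the ETS factor PU.1, the regulator the study was about), CACGTG (the E-box), AGATAA (a site bound by erythroid zinc-finger factors such as Gata1), AAGATGGC (a site of YY1) and CCAAT, which do not contain each other. The ETS letters stood in 29.6% of member promoters, against 6.91% of all 32851 promoters and 13.4% of the 11483 promoters of genes above the background level. CCAAT stood in 46.5%, against 33.8% and 35.1%. The E-box stood in 9.86%, against 6.02% and 8.53%. Letters of the Gata1 kind stood in 4.23%, against 9.99% and 5.88%, PU.1 letters in 9.86%, against 10.6% and 10.5%, and YY1 letters in 1.41%, against 1.56% and 2.05%.

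Split by call, the ETS letters stood in 3 of 16 promoters of members higher in MEL, 9 of 29 of those lower and 9 of 26 of those not called. The PU.1 letters stood in 5 of 16, 0 of 29 and 2 of 26. These are counts of letters in a window that was chosen after the values were seen, with no test. As examples of the matches, the promoters of Snrpg, Prpf3 and Hnrnpul1, higher in MEL, and of Sf3b3, lower in MEL, are given 5′ to 3′ on the gene's strand and ending at the base before the start, with ETS or PU.1 letters of either strand in capitals. Snrpg, Prpf3 and Sf3b3 carry the ETS letters (on the opposite strand in Sf3b3), though another annotated start of Prpf3, whose window is chr3:95855886-95856135, has none of the 6. Hnrnpul1 carries the PU.1 letters on the opposite strand.
Snrpg, chr6:86371290-86371539, plus strand: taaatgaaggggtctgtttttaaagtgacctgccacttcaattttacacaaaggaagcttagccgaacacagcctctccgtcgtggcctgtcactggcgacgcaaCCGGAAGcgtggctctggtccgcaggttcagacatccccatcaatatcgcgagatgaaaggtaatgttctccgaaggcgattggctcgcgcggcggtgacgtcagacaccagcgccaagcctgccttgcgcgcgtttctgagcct
Prpf3, chr3:95855754-95856003, minus strand: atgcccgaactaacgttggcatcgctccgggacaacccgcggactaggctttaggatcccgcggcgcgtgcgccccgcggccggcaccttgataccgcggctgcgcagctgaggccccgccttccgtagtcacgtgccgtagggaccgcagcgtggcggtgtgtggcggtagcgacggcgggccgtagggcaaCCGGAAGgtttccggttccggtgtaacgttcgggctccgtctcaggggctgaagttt
Hnrnpul1, chr7:25754760-25755009, minus strand: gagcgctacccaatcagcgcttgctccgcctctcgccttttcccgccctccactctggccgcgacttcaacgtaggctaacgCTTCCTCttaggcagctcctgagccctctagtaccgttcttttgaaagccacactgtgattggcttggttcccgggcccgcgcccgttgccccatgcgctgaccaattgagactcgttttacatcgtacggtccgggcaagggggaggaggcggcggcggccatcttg
Sf3b3, chr8:110846804-110847053, minus strand: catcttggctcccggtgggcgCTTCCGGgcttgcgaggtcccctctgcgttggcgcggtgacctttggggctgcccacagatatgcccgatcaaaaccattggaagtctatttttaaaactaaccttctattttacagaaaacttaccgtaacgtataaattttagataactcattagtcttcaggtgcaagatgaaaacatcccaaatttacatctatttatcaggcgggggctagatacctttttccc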

How the data were processed

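RNA of 4 cultures (2 MEL, 2 ES-EP) was measured on 1 array each. Per the labels, the authors summarized the arrays by RMA in GeneSpring GX, and the deposited values are log2 signals of 35557 probe sets. Of these 21789 had a single symbol, and probe sets with several symbols (1621) or unnamed here (12147) were left out. Each of 19938 genes was represented by its brightest probe set over all arrays. Differences of MEL from ES-EP were fitted by lmFit and eBayes of limma 3.58.1 in R 4.3.3 (two-sided, 2 residual and 8.2 prior degrees of freedom), with Benjamini-Hochberg adjustment at 0.05 over all genes. The number of arrays limits the precision.

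The members and lists were chosen with earlier results of these data known, and so was the olfactory level. Named genes were, per role, up to 3 called members with the largest differences in each direction, Srsf3 for its probe sets, and 2 per other list. Alternatives were 3 rescalings, 2 filters on low signal, averaging all probe sets of a gene, a replicate block, eBayes with trend and robust, a 1.2-fold test and leaving out each array. Added after the values were seen were the own-chromosome probe set, counts by role across settings, the promoter motifs and their window, and the spread used to judge changes of the median.

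The fit was tested on simulated data with noise drawn from the variances that limma estimated. A first simulation, with noise from the observed SDs, recovered too few of the changed genes to pass and was replaced, so the test that passed favors limma's own model. Figures were drawn with Python 3.11.15 and matplotlib 3.10.9.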

Additional observations from a re-analysis of the deposited data

How the results depend on the processing

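Counts of members called, 40 as reported, fell to 8 in the test against a 1.2-fold difference (6 higher, 2 lower) and ranged from 23 to 32 when 1 array was left out, where the lone array of a cell type was assumed to vary like the other cell type. Lower calls, 25 as reported, numbered 14 with quantile normalization, 7 with median centring and 11 to 18 without 1 array, the fewest being without MEL replicate B. Members of at least 2-fold numbered 2 with median centring, 0 with averaged probe sets and 0 with the own-chromosome probe set. The median difference, -0.13, became -0.0582 (quantile), 0.0158 (median centring) and -0.0613 (cyclic loess) and was -0.1216 with either filter on low signal. Called genes of the other lists fell from 91 to 35 in the 1.2-fold test. Srsf3, not called as reported, differed by -0.06 with the mean of its probe sets (-0.0587) and by -0.31 at its own-chromosome probe set (-0.3095). The letters A and B name no stated pairs, and deviations of same-lettered arrays did not correlate (r = -0.04 over all genes), so they were not taken as pairs. With the replicate block 37 members were called, 15 higher and 22 lower. Of 406 values of 29 named members under the alternatives, 349 kept their direction and side of the threshold, 54 lost the call, 1 gained it and 2 changed sign. Of 251 values of 18 other named genes 250 kept theirs, and 1, of Cherp, lost the call. With 2 cultures per cell type the smallest difference called among the members was that of Snrpb2 (-0.20).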

Other observations

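Some genes of the same families have probe sets that the array table assigns to several symbols, and these were outside the comparison. Their values come from a fit over all 35557 probe sets. Snrpf, the ring partner of Snrpe and Snrpg, shares its probe set with Gm13092 and measured 10.84 and 10.78 in MEL against 11.42 and 11.42 in ES-EP (-0.61, adjusted p = 0.00411). Hnrnph3, sharing with Aff3, was higher in MEL by 0.44 (adjusted p = 0.00895). The 5 probe sets that name Hnrnpa1, a major splicing repressor with many pseudogenes, differed by -0.07 to -0.02, and the 9 that name Hnrnpa3 by 0.09 to 0.21, with none called. Of the latter, 2 held identical values.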
